A study of Mus musculus with 9 samples.

Results

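The mitochondrial genome encodes 22 tRNAs, and 8 of them lie on the strand opposite most genes, here called the light-strand tRNAs. They carry glutamine (Gln), alanine (Ala), asparagine (Asn), cysteine (Cys), tyrosine (Tyr), serine read by UCN codons (Ser(UCN)), glutamate (Glu) and proline (Pro). The deposited table has 40807 rows, each a transcript ID without a gene name, and these 8 tRNAs were taken as 8 of its rows by place. The row of ENSRNOT00000041720 was counted as position 1 (tRNA-Phe), and positions 8, 12, 13, 14, 15, 17, 34 and 37 of the standard vertebrate mitochondrial gene order were taken. RNA of ovary from Balb/c mice, per the labels, was sequenced in 9 libraries, 3 in each of 3 groups. The labels of the Blank group name no disease or agent. The POF group modelled premature ovarian failure, in which the ovary stops working early, and POF+BSHXF is that model treated with Bushen Huoxue Fang, a herbal formula. The sources used here do not give the animals' age, how the model was made, or how much of the formula was given and for how long.

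Both strands of mitochondrial DNA are transcribed into long precursors that hold several genes. The tRNAs sit between the mRNAs and rRNAs, and enzymes cut the precursor at both ends of each tRNA, which frees the neighbouring RNAs as well. The light-strand precursor holds the light-strand tRNAs and a single mRNA, ND6, a subunit of respiratory complex I. A mature tRNA receives a CCA end and then its amino acid, and it supplies the mitochondrial ribosome, which makes only respiratory chain and ATP synthase subunits. Oocytes and steroid-making cells of the ovary are rich in mitochondria.

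The gene order used for the naming was compared with the mouse annotation, and the naming by place with the counts. All 40807 IDs carry Ensembl's prefix for rat, whereas the samples are labelled mouse, and no table used here pairs them with names, so each name below is the gene that the order puts at that place. In the mouse annotation (GENCODE M21) the 37 mitochondrial genes follow that order, and the strand of 37 of 37 positions is the one assumed. This checks the assumed order only and does not test whether the deposited rows are these genes. The 15 positions of mRNAs and rRNAs held at least 66530 estimated counts in every library, and the 22 tRNA positions held at most 5653. The counts therefore separate the 15 long from the 22 short genes at every place, but they do not test which tRNA is which. Markers of ovarian cells could not be looked up for lack of names, and fewer mitochondria or cells of a type cannot be told apart from less RNA per cell in whole tissue.

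**Figure D1:**
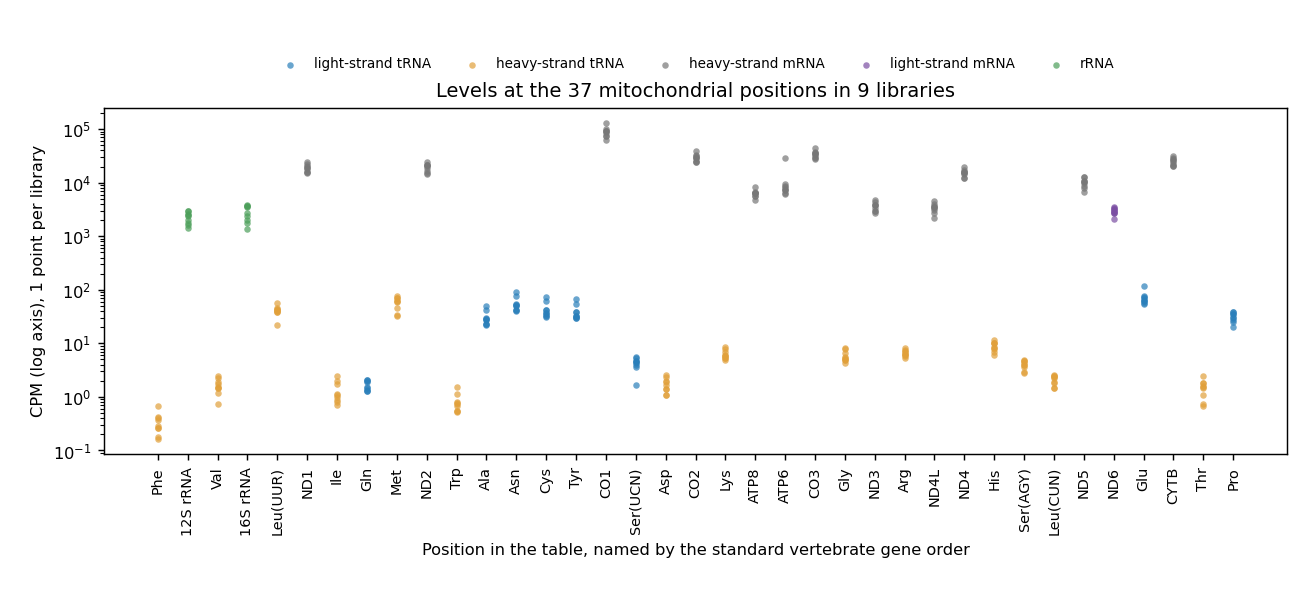
Level of each of the 37 mitochondrial positions in table order, in CPM on a log axis, with 1 point per library (9 libraries) and colours for the kind of gene. The 15 mRNA and rRNA positions lie above all 22 tRNA positions, and 6 of the 8 light-strand tRNAs (blue) lie above 12 of the 14 heavy-strand tRNAs (orange) on average.

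The mouse sequences of 5 of these tRNAs are shown because the results below turn on them: the 4 that are next to each other in the genome, and tRNA-Glu, the most abundant. They come from the GENCODE M21 mouse transcripts and are written 5′ to 3′ as DNA letters of the tRNA strand, with the anticodon in capitals. If the counts refer to rat genes, single bases may differ.
tRNA-Ala: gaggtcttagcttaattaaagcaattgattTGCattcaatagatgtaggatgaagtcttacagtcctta
tRNA-Asn: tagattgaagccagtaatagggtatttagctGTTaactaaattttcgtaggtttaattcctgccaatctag
tRNA-Cys: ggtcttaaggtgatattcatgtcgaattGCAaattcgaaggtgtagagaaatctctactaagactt
tRNA-Tyr: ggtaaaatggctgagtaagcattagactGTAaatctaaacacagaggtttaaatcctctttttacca
tRNA-Glu: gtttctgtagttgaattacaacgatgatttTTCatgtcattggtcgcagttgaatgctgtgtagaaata
In each, the capitals sit in a loop of 7 bases closed by a stem in which 5 of 5 base pairs form, G-T pairs included. The anticodons read UGC for Ala, GUU for Asn, GCA for Cys, GUA for Tyr and UUC for Glu, and those of the others read UUG for Gln, UGA for Ser(UCN) and UGG for Pro.

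The 8 mouse sequences are 66 to 71 bases long. They share a base composition that follows from the strand: 8 of 8 have more G than C, against 3 of the 14 heavy-strand tRNAs. The median G content was 22.96% in the light-strand and 15.72% in the heavy-strand tRNAs, and the median C content was 13.9% and 17.3%. The labels' protocols give reads of 150 bases and inserts of 300 ± 50 bp from poly(A)-selected RNA, so a read that covers one of these rows is longer than the tRNA. A mature mitochondrial tRNA has no poly(A) tail. Which part of the counts came from uncut precursors was not tested, and the values below are not levels of mature, charged tRNA.

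All 8 rows were detected in every library, and 8 of 8 passed the filter on low counts. Per length, tRNA-Glu was the most abundant at 1023 ± 268 CPM per 1000 bases (SD, n = 9 libraries), where CPM is the usual depth-scaled count with TMM-scaled library totals and lengths are those of the mouse genes. Next came tRNA-Asn at 785 ± 246, tRNA-Cys at 654 ± 219 and tRNA-Tyr at 582 ± 190 CPM per 1000 bases. tRNA-Pro stood at 466 ± 92.6 and tRNA-Ala at 436 ± 133 on this scale. The remaining rows were far lower, tRNA-Ser(UCN) at 61.5 ± 16.3 and tRNA-Gln at 23.4 ± 4.80 CPM per 1000 bases.

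The order of the upper rows was close, and that of the lower ones was not. The ranges of tRNA-Ala and tRNA-Ser(UCN) did not overlap, with a ratio of means of 7.10, and this was the only gap between neighbours in the order whose ranges were separate. Within each library, tRNA-Asn was above tRNA-Cys and tRNA-Cys above tRNA-Tyr in 9 of 9 libraries. tRNA-Glu was above tRNA-Asn in 8 of 9, tRNA-Tyr above tRNA-Pro in 8 of 9 and tRNA-Ser(UCN) above tRNA-Gln in 8 of 9. tRNA-Pro was above tRNA-Ala in only 5 of 9, so these do not differ beyond their spread. ND6, the mRNA of the same strand, stood at 5692 ± 816 CPM per 1000 bases. Among all 22 tRNA positions ordered per length, light-strand rows took ranks 1, 3, 4, 5, 7, 8, 14 and 18. The heavy-strand rows among the first 8 ranks were tRNA-Met and tRNA-Leu(UUR), which lie directly before the ND2 and ND1 mRNAs.

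The 4 rows Ala, Asn, Cys and Tyr are adjacent, between tRNA-Trp and the CO1 mRNA. In mammals, the origin of light-strand replication lies among these 4 rows. Their counts kept nearly fixed proportions. The ratio of tRNA-Asn to tRNA-Ala counts was 1.79 to 1.88 over the 9 libraries, a standard deviation of 0.02 on the log2 scale. This was the smallest among the 231 pairs of tRNA rows. For the 6 pairs within these 4 rows the standard deviation of the log2 ratio was 0.02 to 0.12. For the other 22 pairs of light-strand tRNAs it was 0.23 to 0.82, with a median of 0.36, and for the 91 pairs of heavy-strand tRNAs 0.09 to 1.10, with a median of 0.39. The small spread was not limited to these 4 rows. The adjacent heavy-strand pairs tRNA-Ser(AGY) with tRNA-Leu(CUN) and tRNA-His with tRNA-Ser(AGY), named after their values were seen, stood at 0.09 and 0.11. Over all tRNAs, the 5 adjacent pairs of the same strand ran from 0.02 to 0.11, and the 5 adjacent pairs of opposite strands from 0.34 to 0.71. These are descriptions without a test: a read can cover parts of adjacent rows, and rows with few counts have more counting error.

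The proportions within the 4 rows were not the same in every library. In POF+BSHXF replicate 1 the ratio to tRNA-Ala was lowest, at 1.24 for tRNA-Cys and 1.09 for tRNA-Tyr. In the other 8 libraries it was 1.35 to 1.49 for tRNA-Cys and 1.17 to 1.44 for tRNA-Tyr. The 4 rows together made up 56.2% ± 3.95 of the light-strand tRNA counts in Blank (SD, n = 3), 60.2% ± 1.58 in the model alone and 64.7% ± 5.97 with the formula.

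With the formula, the 4 adjacent rows were the members with the largest differences, and none passed the test. tRNA-Asn (ENSRNOT00000048525), which reads asparagine codons, stood at 42.4, 50.3 and 42.6 CPM in Blank replicates 1 to 3. It was at 51.9, 52.3 and 39.5 CPM in POF and at 53.1, 77.9 and 91.3 CPM in POF+BSHXF. The POF+BSHXF libraries lay above all Blank and POF libraries, but replicate 1 was only just above the highest POF library. Against POF it differed by 0.63 ± 0.21 on the log2 scale (SE; 1.55-fold, 95% interval 1.10 to 2.18, not adjusted for the number of rows), with an edgeR adjusted p of 1. Against Blank it was 0.72 ± 0.21 (1.64-fold, 1.17 to 2.31), with an edgeR adjusted p of 0.782.

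tRNA-Ala (ENSRNOT00000044320), the alanine carrier, stood at 23.04, 27.25 and 22.74 CPM in Blank and at 28.10, 28.21 and 22.02 CPM in POF. In POF+BSHXF it was at 29.3, 41.4 and 49.0 CPM, again with all 3 libraries above the other 6 and replicate 1 close to them. The log2 fold change was 0.61 ± 0.21 against POF (edgeR adjusted p = 1) and 0.71 ± 0.21 against Blank (edgeR adjusted p = 0.782).

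tRNA-Cys (ENSRNOT00000045310), on the far side of the replication origin, stood at 32.3, 36.7 and 33.6 CPM in Blank and at 41.6, 41.5 and 31.7 CPM in POF. It was at 36.4, 61.7 and 73.0 CPM in POF+BSHXF, where replicate 1 fell inside the range of both other groups. Its log2 fold change was 0.58 ± 0.25 against POF (edgeR adjusted p = 1) and 0.74 ± 0.25 against Blank (edgeR adjusted p = 0.782). tRNA-Tyr (ENSRNOT00000051860), next to CO1, had the same shape, with 29.34, 31.95 and 29.67 CPM in Blank. Its levels were 37.7, 38.95 and 31.6 CPM in POF and 31.9, 53.9 and 66.1 CPM in POF+BSHXF. POF+BSHXF replicate 1 thus lay below Blank replicate 2, and replicates 2 and 3 lay above all other libraries. The log2 fold change was 0.49 ± 0.25 against POF (edgeR adjusted p = 1) and 0.74 ± 0.25 against Blank (edgeR adjusted p = 0.782).

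**Figure D2:**
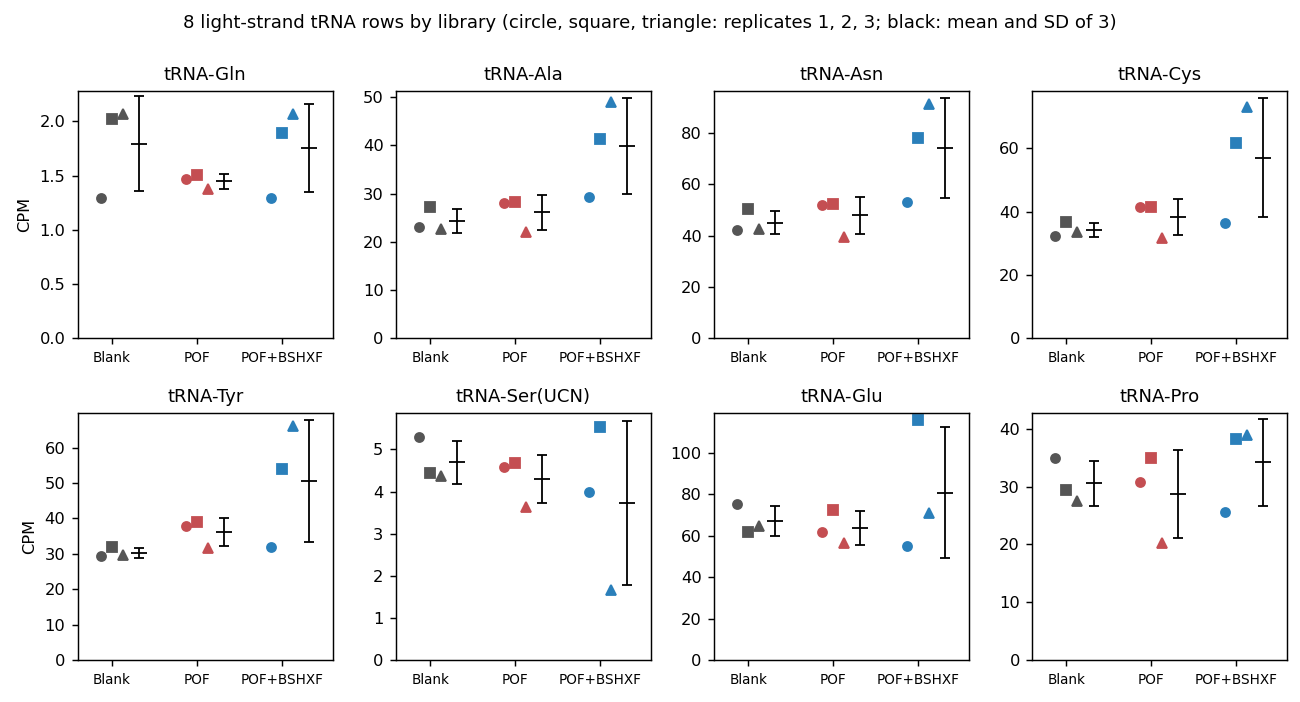
Level of each of the 8 light-strand tRNA rows in CPM (axes start at 0, a scale per panel), 1 symbol per library, with the mean and SD of 3 libraries in black. In the Ala, Asn, Cys and Tyr panels POF+BSHXF replicates 2 and 3 lie above every other library while replicate 1 lies near the POF libraries, and in the Ser(UCN) panel POF+BSHXF replicate 3 is lowest at 1.67 CPM.

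tRNA-Glu and tRNA-Pro flank the CYTB and tRNA-Thr genes at the end of the order, and both stayed within the spread of the libraries. tRNA-Glu (ENSRNOT00000049806), which lies next to ND6 on the same strand, stood at 75.3, 61.8 and 64.5 CPM in Blank and at 61.9, 72.6 and 56.5 CPM in POF. In POF+BSHXF it was at 55.0, 116.2 and 71.2 CPM. Replicate 2 was the highest of all 9 libraries and replicate 1 the lowest, so the groups overlapped. tRNA-Glu in this group differed by 0.34 ± 0.26 on the log2 scale from POF (edgeR adjusted p = 1), and without POF+BSHXF replicate 2 by -0.04. Against Blank it differed by 0.27 ± 0.26 (edgeR adjusted p = 0.958), and without that library by -0.12.

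tRNA-Pro (ENSRNOT00000044639), the last gene before the control region, stood at 35.01, 29.36 and 27.51 CPM in Blank and at 30.8, 35.1 and 20.2 CPM in POF. It was at 25.6, 38.3 and 38.9 CPM in POF+BSHXF. The groups overlapped, and the log2 difference was 0.25 ± 0.25 against POF (edgeR adjusted p = 1) and 0.16 ± 0.25 against Blank (edgeR adjusted p = 1.00).

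The least abundant members rest on few counts. tRNA-Gln (ENSRNOT00000049396), which overlaps the end of tRNA-Ile on the other strand in the mouse annotation, held 51 to 118 estimated counts per library. Its levels were 1.29, 2.02 and 2.07 CPM in Blank, 1.47, 1.504 and 1.37 CPM in POF and 1.29, 1.89 and 2.07 CPM in POF+BSHXF. POF was the narrowest group and lay inside the range of both others. The log2 fold change was -0.31 ± 0.34 for POF against Blank (edgeR adjusted p = 0.872) and 0.27 ± 0.34 for POF+BSHXF against POF (edgeR adjusted p = 1).

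tRNA-Ser(UCN) (ENSRNOT00000040283), whose end meets that of CO1 from the other strand, held 76 to 269 estimated counts. It stood at 5.29, 4.44 and 4.37 CPM in Blank and at 4.59, 4.68 and 3.64 CPM in POF. In POF+BSHXF it was at 3.997, 5.53 and 1.67 CPM, so the lowest and the highest of the 9 libraries were both in this group. POF+BSHXF replicate 3, the lowest here, was the highest library for tRNA-Ala, tRNA-Asn, tRNA-Cys and tRNA-Tyr. The log2 fold change against POF was -0.20 ± 0.42 (edgeR adjusted p = 1), and 0.15 without that library.

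**Figure D3:**
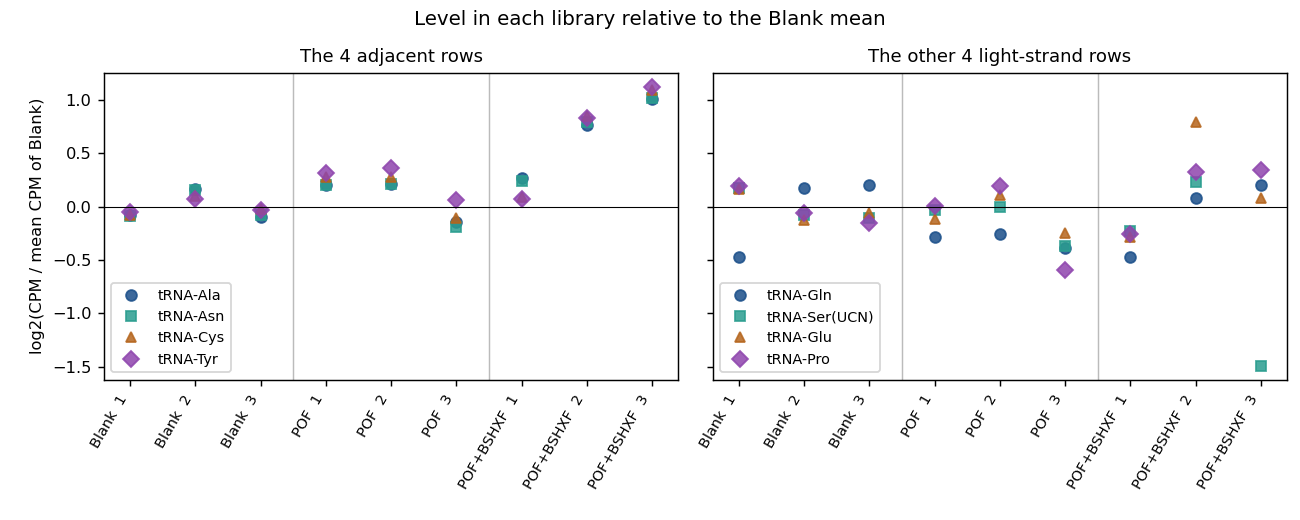
Level of each light-strand tRNA row in each library as log2 of the ratio to its Blank mean, for the 4 adjacent rows (left) and the other 4 (right). The 4 adjacent rows lie close together in every library, and the other 4 lie further apart in several libraries, Blank replicate 1 among them.

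In the model against Blank, the light-strand tRNAs lay on both sides of 0, and none was called. With edgeR's quasi-likelihood test, 0 of the 8 were called at an adjusted p below 0.05, beside 0.00965% of the 20723 rows tested. At an unadjusted p below 0.05 the count was also 0 of 8, beside 7.83% of all rows. It was 0 with DESeq2 and 0 with limma-voom, beside 2465 and 1223 of the 20723 rows. The log2 fold changes ran from -0.31 to 0.25, with 4 above 0 (51.3% of all rows were) and 4 below, and a median of 0.00, beside a median of 0.01 over all rows. The unadjusted 95% interval ran from 0.752-fold to 1.67-fold for tRNA-Cys and from 0.802-fold to 1.77-fold for tRNA-Tyr. Changes within these bounds were therefore not excluded. In 0 of 8 rows did the POF and Blank libraries separate, beside 8.68% of all rows separated upward and 7.34% downward.

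The heavy-strand tRNAs, from a list fixed by the gene order, stood differently in this comparison. Of 14, 13 had a log2 fold change below 0, with a median of -0.50, and 0 were called. The POF libraries lay below all Blank libraries in 5 of 14, beside 7.34% of all rows, and the unadjusted p was below 0.05 for 1 with a lower level, tRNA-Ile (0.0219), beside 3.25% of all rows. The 12 heavy-strand mRNAs had a median of -0.36, with 11 below 0 and 0 called, and both rRNAs were below 0. Of these mRNAs, 5 separated downward and 5 had an unadjusted p below 0.05 with a lower level, beside the same 7.34% and 3.25%. ND6 was at 2990 ± 372 CPM in Blank and 2954 ± 725 CPM in POF, which is -0.02 ± 0.19 on the log2 scale (edgeR adjusted p = 0.997). Whether the strands differ in their response was not tested.

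The share of mitochondrial RNA also differed between the groups' means. All 37 positions together took 30.9% ± 4.52 of the TMM-scaled total in Blank (SD, n = 3), 23.97% ± 2.75 in the model alone and 26.8% ± 3.42 with the formula, and the part of this in the values above and below was not tested. The 8 light-strand tRNAs summed to 238 ± 9.69 CPM in Blank, 247 ± 35.6 CPM in POF and 342 ± 91.5 CPM in POF+BSHXF (SD, n = 3). Their share of the counts at the 37 positions depends on the total of those positions too, whose mean was lower in POF than in Blank. As a share of the counts at the 37 positions, the light-strand tRNAs were at 0.0678%, 0.0885% and 0.0782% in Blank. They were at 0.123%, 0.104% and 0.0847% in POF and at 0.103%, 0.136% and 0.138% in POF+BSHXF. The Blank and POF+BSHXF libraries did not overlap in this share, and POF replicate 3 fell inside the Blank range. That library stands apart in ATP6, at 29039 CPM beside 6040 to 9580 CPM in the other 8 libraries. With ATP6 left out of the denominator, a choice made after the data were seen, its share was 0.0961%. This lay above the highest Blank value of 0.0912%, so the overlap with Blank was present only with ATP6 counted. Of the counts at the 22 tRNA positions alone, the light-strand tRNAs held 60.5% ± 3.10 in Blank, 69.0% ± 4.77 in the model alone and 69.0% ± 3.98 with the formula. All 6 libraries of POF and POF+BSHXF (65.5% to 74.5%) lay above the 3 Blank libraries (58.3% to 64.1%) in this share. This share depends on the heavy-strand tRNAs as well as on the light-strand ones. The 14 heavy-strand tRNAs summed to 156 ± 16.5 CPM in Blank, 111 ± 27.6 CPM in POF and 151 ± 31.3 CPM in POF+BSHXF (SD, n = 3). Between Blank and POF the means of the heavy-strand sum differed more than those of the light-strand sum. Both sums had a higher mean in POF+BSHXF than in POF. No test was made of these sums.

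For POF+BSHXF against POF, 0 of 8 light-strand tRNAs were called with edgeR, beside 0.00965% of all rows. The unadjusted p was below 0.05 and the level higher for 3 of 8, beside 1.47% of all rows: tRNA-Asn (0.0186), tRNA-Ala (0.0195) and tRNA-Cys (0.0498). These 3 are neighbours whose counts can share reads, so they may not be independent. The count was 3 with DESeq2 and 2 with limma-voom. Leaving out POF replicate 3 gave 0, and so did leaving out POF+BSHXF replicate 2, or its replicate 3, or fitting only these 2 groups. Leaving out POF+BSHXF replicate 1 gave 5. Over all rows and in either direction, the count was 567 of 20723 with edgeR, 857 with DESeq2 and 609 with limma-voom. In the order above, the other fits gave 912, 443, 852, 364 and 747 of 19751 to 21646 rows tested. Of 8, 7 had a log2 fold change above 0, beside 51% of all rows, and their median was 0.42, beside 0.01 over all rows. That median was 0.65 without POF+BSHXF replicate 1, and 0.30 without its replicate 2 as well as without its replicate 3. Libraries separated upward in 2 of 8 rows, tRNA-Ala and tRNA-Asn, beside 3.42% of all rows. They did so in 2 of 14 heavy-strand tRNAs, tRNA-Leu(UUR) and tRNA-Ile.

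Other mitochondrial rows also stood above 0 in this comparison. For the heavy-strand tRNAs the median log2 fold change was 0.36, with 14 of 14 above 0, 0 called and 0 at an unadjusted p below 0.05. tRNA-Trp, directly before tRNA-Ala on the other strand, differed by 0.56 ± 0.53, and CO1, directly after tRNA-Tyr, by 0.24 ± 0.18 (edgeR adjusted p = 1 for both). ND6 differed by -0.02 ± 0.19 (edgeR adjusted p = 1). For every 1000 counts of ND6, the 4 adjacent rows held 48.4, 46.7 and 58.9 counts in POF and 56.6, 76.2 and 92.9 in POF+BSHXF, beside 37.2, 51.9 and 47.0 in Blank. Only POF+BSHXF replicates 2 and 3 lay clear of the other groups in this ratio. tRNA-Pro held 9.38 to 10.4 counts per 1000 of ND6 in the 6 libraries of Blank and POF and 9.59, 12.4 and 12.9 in POF+BSHXF.

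**Figure D4:**
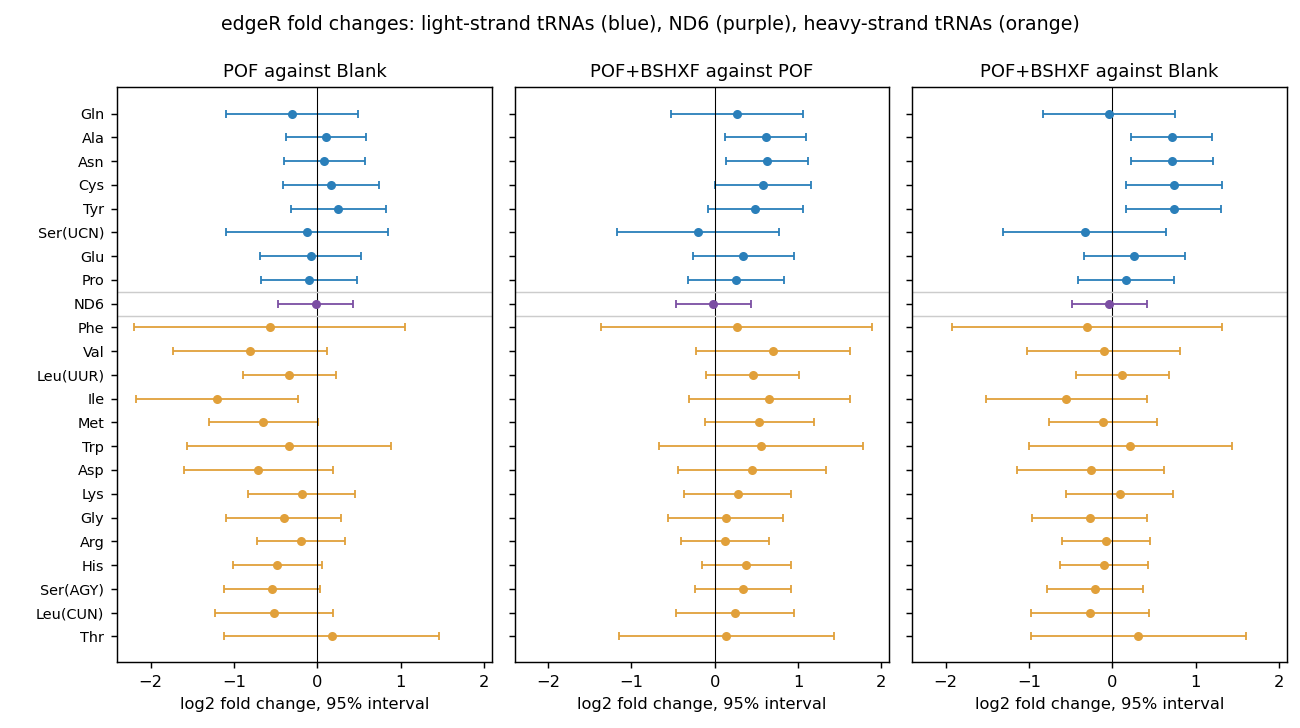
edgeR log2 fold changes with unadjusted 95% intervals for the 8 light-strand tRNAs (blue), ND6 (purple) and the 14 heavy-strand tRNAs (orange) in the 3 comparisons. In POF against Blank the blue points lie on both sides of 0 and 13 of 14 orange points lie below it, and in POF+BSHXF against Blank the 4 adjacent rows lie between 0.71 and 0.74.

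For POF+BSHXF against Blank, edgeR again called 0 of 8, beside 0.00965% of all rows. The unadjusted p was below 0.05 with a higher level for 4 of 8, the 4 adjacent rows, at 0.00964 to 0.0185, beside 4.01% of all rows. Here too, the counts of these neighbours can share reads, so the 4 may not be independent. DESeq2 also gave 4 and limma-voom 4, and leaving out either replicate 2 or replicate 3 of POF+BSHXF gave 2. Over all rows and in either direction, the count was 1213 of 20723 with edgeR, 2044 with DESeq2 and 794 with limma-voom. It was 1255 of 21646 without POF+BSHXF replicate 2 and 699 of 21541 without its replicate 3. The median log2 fold change of the 8 was 0.49, beside 0.01 over all rows, and 6 were above 0, beside 50.9% of all rows. Libraries separated upward in 2 of 8, tRNA-Ala and tRNA-Asn, beside 6.04% of all rows. The heavy-strand tRNAs had a median of -0.11 with 4 of 14 above 0, and the 12 heavy-strand mRNAs a median of -0.21 with 0 above 0. The last 2 comparisons share the POF+BSHXF libraries, so both hold the same high values of replicates 2 and 3.

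The libraries themselves were uneven. Totals ran from 41231313 to 58392086 estimated counts, and on the first principal component of all rows, which held 28.2% of the variance, replicate 1 of POF and replicate 3 of POF+BSHXF lay together at one end. POF+BSHXF replicate 3 was the highest library for the 4 adjacent rows, at a summed 279.4 CPM, whereas POF replicate 1 was at 159.3 CPM beside 161.0 and 124.9 CPM in the other POF libraries. Without both of these libraries, 0 of 8 rows had an unadjusted p below 0.05 against POF and 2 of 8 against Blank. Over all 21226 rows tested, 753 and 806 did so in either direction. The part of this axis in the result was not tested.

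The pattern of the summed light-strand tRNAs was then set beside the other mitochondrial positions with a mean of at least 2 CPM, over the 9 libraries and on the log2 CPM scale. By Pearson's r, the 3 most alike of 23 were the ND5 mRNA, tRNA-Lys and tRNA-Met. For ND5, Pearson's r was 0.59 (exact permutation p = 0.0873, adjusted 0.662) and Spearman's rho 0.70 (exact permutation p = 0.0433, adjusted 0.497). For tRNA-Lys r was 0.54 (exact permutation p = 0.121, adjusted 0.662) and rho 0.48 (exact permutation p = 0.194, adjusted 0.776). For tRNA-Met r was 0.47 (exact permutation p = 0.176, adjusted 0.662) and rho 0.37 (exact permutation p = 0.336, adjusted 0.776). Leaving out POF+BSHXF replicates 2 and 3, the farthest from the median, gave r of 0.51, 0.49 and 0.25. The order depended on the measure and on those 2 libraries. The ND6 mRNA, from the light strand, had an r of 0.45 (exact permutation p = 0.224, adjusted 0.662) but the highest rho of the 23, at 0.72 (exact permutation p = 0.0369, adjusted 0.497). Without the 2 libraries its r was 0.91, the farthest from 0 of the 23. No p-value was computed for it, and those 2 libraries were picked by the summed light-strand tRNAs themselves. By Pearson's r over the 9 libraries, 0 of the 23 had an adjusted or an unadjusted permutation p below 0.05, and no group has enough libraries for a value within it.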

How the data were processed

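Ovary RNA of 9 libraries was analysed, 3 per group. The file deposited by the authors holds a whole number per transcript ID and library, read here as unscaled estimated counts, since the column totals differ and values of 4 and 8 are over-represented. Per the submitters' processing notes, the tools were StringTie 1.3.4d, HISAT2 2.0.4, cutadapt 1.9, DESeq2 and edgeR, whose roles are not named. The sources used here do not give the build, annotation, counting step or its strand setting, so reads of both strands cannot be told apart at a row. Columns were matched to samples by group name and number, with columns headed as treated assigned to samples whose titles name the formula, and 0 columns were left over.

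Rows were filtered with filterByExpr (minimum count 10, minimum total 15), which kept 20723 of 40807. edgeR 4.0.16 (R 4.3.3) fitted all 9 libraries with 3 group means, TMM normalization and a robust quasi-likelihood F test, with Benjamini-Hochberg adjustment over all rows and a threshold of 0.05. CPM use TMM-scaled totals. Each standard error is |log2 fold change| over the square root of its F statistic, and 95% intervals use the test's degrees of freedom. Fold changes of low rows are shrunk slightly by edgeR's prior count. The test was also run on simulated counts with rows drawn independently, and no result here rests on its outcome.

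Alternatives were RLE normalization, library sizes without the 37 mitochondrial positions, DESeq2 1.42.0, limma-voom (limma 3.58.1), no filter, a stricter filter (20 counts in 3 libraries), counts divided by 4, only the groups compared, a replicate block and each library left out. Leaving out 2 libraries together and leaving out ATP6 from the share of mitochondrial counts were chosen after the data were seen. The members, the position lists and the rule for naming other rows (neighbours, ND6 and the 3 most alike) were chosen with earlier results of these data known. Whether a group's libraries are separate animals is not stated, and the p-values then reflect only the spread among these samples, possibly technical. Estimated counts are not independent reads.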

Additional observations from a re-analysis of the deposited data

How the results depend on the processing

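Under each of 19 alternatives edgeR, DESeq2 or limma-voom called 0 of the 8 rows in all 3 comparisons. Over all rows they called 0 to 497 in POF against Blank and 0 to 116 in POF+BSHXF against POF. In POF+BSHXF against Blank it was 0 to 373. The highest of each came from DESeq2, whereas the main fit called 2 of 20723 rows in each comparison. With a replicate block by title number, the counts called were 0, 0 and 0, as they were over all rows. The counts at an unadjusted p below 0.05 were 0, 2 and 4 in the order used above, beside 878, 382 and 554 of all 20723 rows. Libraries of the same number showed no positive shared deviation (0 of 9 pairs had a correlation above 0.1, range -0.28 to 0.03), so the numbers gave no sign of a pairing. Among pairs of unlike number, POF replicate 1 with POF+BSHXF replicate 3 stood at 0.27. POF replicate 3 with POF+BSHXF replicate 1 stood at 0.26, and the rest ran from -0.07 to 0.05. Over all alternatives the adjusted p of tRNA-Ala ran from 0.565 to 1 against POF and from 0.0930 to 1 against Blank. Of 456 log2 fold changes, 13 changed sign, and the cause was not tested. With each library left out, POF against Blank ran from -0.18 to 0.0031 for tRNA-Glu and from -0.26 to 0.10 for tRNA-Pro. POF+BSHXF against POF ran from -0.61 to 0.15 for tRNA-Ser(UCN) and from -0.039 to 0.56 for tRNA-Glu. POF+BSHXF against Blank ran from -0.24 to 0.14 for tRNA-Gln, from -0.75 to 0.021 for tRNA-Ser(UCN) and from -0.12 to 0.48 for tRNA-Glu. Without POF replicate 1 and POF+BSHXF replicate 3, tRNA-Ser(UCN) was at 0.20 against POF and 0.021 against Blank. The light-strand share of counts at the 37 positions, 0.0782%, 0.104% and 0.126% in Blank, POF and POF+BSHXF, was 0.0563%, 0.0771% and 0.0962% without tRNA-Glu, and 60.5%, 69.0% and 69.0% of the 22 tRNA positions, since these change what is summed. Without ATP6 in the denominator it was 0.0805%, 0.110% and 0.129%. Depth limits tRNA-Gln and tRNA-Ser(UCN) most, with 51 to 118 and 76 to 269 counts per library.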
